A study of Penicillium oxalicum with 18 samples.

Results

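The complemented strain Refbx23 of the cellulase-producing fungus *Penicillium oxalicum* was compared with the wild type (WT) after transfer to cellulose medium (VMMC), gene by gene. A gene entered the comparison where its mean over the 3 Refbx23 and 3 WT libraries reached 1 FPKM (fragments mapped per kilobase of transcript, scaled to library size). This kept 8012 of the 9230 genes in the table (86.8%) and left out 1218, of which 203 were listed at 0 in all 6 libraries. Refbx23 was made by putting a fragment with the *fbx23* gene, its upstream region and its terminator, joined to the marker *ptrA*, into the deletion strain, and its genotype is given as Δfbx23::hph fbx23::ptrA. Δfbx23 (Δfbx23::hph) is its parent, and WT is strain 114-2. The sources used here do not say whether more than 1 complemented transformant was profiled. The question addressed was which transcripts of the complemented strain stood at the WT level on cellulose and which did not.

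All strains were precultured for 24 h in glucose medium (VMMG) at 30 °C and then moved to VMMC or to fresh VMMG. The labels give 18 h of further culture and, for VMMC, bran and microcrystalline cellulose at 1% each, whereas the study's methods describe a longer culture on ball-milled cellulose. The series has 18 libraries, 3 of each strain in each medium, and 6 of them enter the main comparison. The labels do not state that the 3 libraries of a group came from separate cultures. The study calls the WT and Δfbx23 transcriptome libraries of both media biological triplicates. For Refbx23 the only such statement found is a general one in a figure legend on VMMG cultures, and none was found for VMMC. For that strain the spread behind the p-values may therefore be technical. FPKM sums lay between 781397 and 954142 over the 18 libraries. Read counts were not used here, so absolute depth is unknown. An estimate from the lowest FPKM values lay between 0.974 and 1.06 times the median of the libraries. It used only values close to the lowest of each gene, so it could not have shown a large difference in depth. Pearson correlations of log2(FPKM + 1) between libraries of a group were 0.991 to 0.993 for Refbx23 and 0.984 to 0.990 for WT in VMMC. In VMMG they were 0.981 to 0.990 for Refbx23 and 0.962 to 0.992 for WT. In RNA from whole mycelium, fewer cells expressing a gene and less transcript per cell cannot be told apart.

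F-box proteins are the substrate-binding subunits of SCF ubiquitin ligases, in which Skp1 links the F-box protein to the Cul1 scaffold and Rbx1 recruits the ubiquitin-conjugating enzyme. Fbx23 is an F-box protein with WD repeats, and the study concerns its relation to the zinc finger transcription factor Ace1. On cellulose such fungi secrete cellobiohydrolases, endoglucanases, xylanases and lytic polysaccharide monooxygenases (LPMOs), whose genes are induced by cellulose breakdown products and repressed by glucose. They also hold gene clusters for secondary metabolites, built around a backbone gene for a nonribosomal peptide synthetase (NRPS), a polyketide synthase (PKS) or a dimethylallyl tryptophan synthase (DMAT).

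The reintroduced gene was transcribed near the WT level. *fbx23* (PDE_08467) stood at 58.5, 67.0 and 56.9 FPKM in Refbx23, against 58.9, 66.8 and 60.2 FPKM in WT in VMMC, and was listed at 0 in all 3 Δfbx23 libraries. Refbx23 and WT overlapped, with means of 60.8 ± 5.42 and 62.0 ± 4.22 FPKM (SD, n = 3 each) and a two-sided exact permutation p of 0.6, where 3 libraries against 3 cannot give less than 0.1. In VMMG the means were 68.4 ± 5.71 FPKM in Refbx23 and 73.3 ± 3.39 FPKM in WT (SD, n = 3 each, two-sided exact permutation p = 0.3). Among the partner genes, the scaffold gene *cul1* (PDE_00128) averaged 96.4 FPKM in Refbx23 and 91.2 FPKM in WT, *rbx1* (PDE_02289) 97.7 FPKM in Refbx23 and 104 FPKM in WT, and *ace1* (PDE_01988) 151 FPKM in Refbx23 and 142 FPKM in WT. None of these passed the test for a 2-fold change, and all 3 overlapped between the strains. The adaptor gene *skp1* (PDE_02249) did not overlap, at 278, 259.5 and 261 FPKM in Refbx23, 257, 287 and 265 FPKM in Δfbx23 and 486, 394 and 462 FPKM in WT. Its log2 fold change over WT of -0.74 ± 0.09 (SE, adjusted p = 0.000188) was under the fold threshold.

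In VMMC 1019 of the 8012 genes (12.7%) differed between Refbx23 and WT by at least 2-fold at a Benjamini-Hochberg adjusted p under 0.05 in limma. Of these, 451 (5.63% of the genes tested) were higher and 568 (7.09%) lower in Refbx23. Fold changes are on the log2(FPKM + 1) scale, Refbx23 over WT unless another pair is named, with the SE after ±, and they understate the change of genes with low values. The median over all genes tested was -0.01. The risen genes had a median log2 fold change of 1.62 and the fallen genes of -1.39. A change of at least 4-fold was reached by 161 risen and 134 fallen genes, and one of at least 16-fold by 27 risen and 17 fallen genes. The adjusted p alone, with no demand on size, was under 0.05 for 61.8% of the genes, and the libraries of the 2 strains did not overlap for 68.0%. The values nearest to the fold threshold were 1.0008 inside it and 0.9999 outside it. Set against its parent Δfbx23 in VMMC, a comparison that shares the Refbx23 libraries, Refbx23 differed at 246 of 7894 genes (3.12%), 114 higher (1.44%) and 132 lower (1.67%).

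The largest falls were genes at a high level in WT that stood at or near 0 in Refbx23. PDE_03475, which the study's annotation places in carbohydrate transport, had 8.91, 10.4 and 8.29 FPKM in Refbx23, 3.74, 3.20 and 3.51 FPKM in Δfbx23 and 5521, 6024 and 5935 FPKM in WT (-9.16 ± 0.09 over WT, adjusted p = 6.67e-10). Over Δfbx23 it was higher (1.18 ± 0.11, adjusted p = 0.000713), at a level still far under WT, and this call was lost with all 18 libraries in 1 fit. PDE_06899, which has no description in the sources used here, had 2.47, 1.96 and 1.43 FPKM in Refbx23, 1.56, 0.43 and 0.81 FPKM in Δfbx23 and 1994, 2158 and 2334 FPKM in WT (-9.53 ± 0.13 over WT, adjusted p = 1.85e-09), and did not pass against Δfbx23 (0.64 ± 0.25). Both genes were strongly expressed in WT on cellulose, and no Refbx23 library came near the lowest WT library. PDE_04352 had 6.14, 6.49 and 5.70 FPKM in Refbx23 against 405, 439.7 and 434 FPKM in WT (-5.91 ± 0.07). PDE_02146, annotated with hydrolase activity, had 5.96, 6.71 and 6.57 FPKM in Refbx23 against 296, 326 and 326 FPKM in WT (-5.42 ± 0.07). PDE_03478, a close neighbour of PDE_03475 in locus number, had 1.52, 1.25 and 0.96 FPKM in Refbx23 against 91.9, 97.5 and 98.1 FPKM in WT (-5.44 ± 0.10). In all 3 of these genes the strains were far apart and the libraries within a strain close together.

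**Figure D1:**
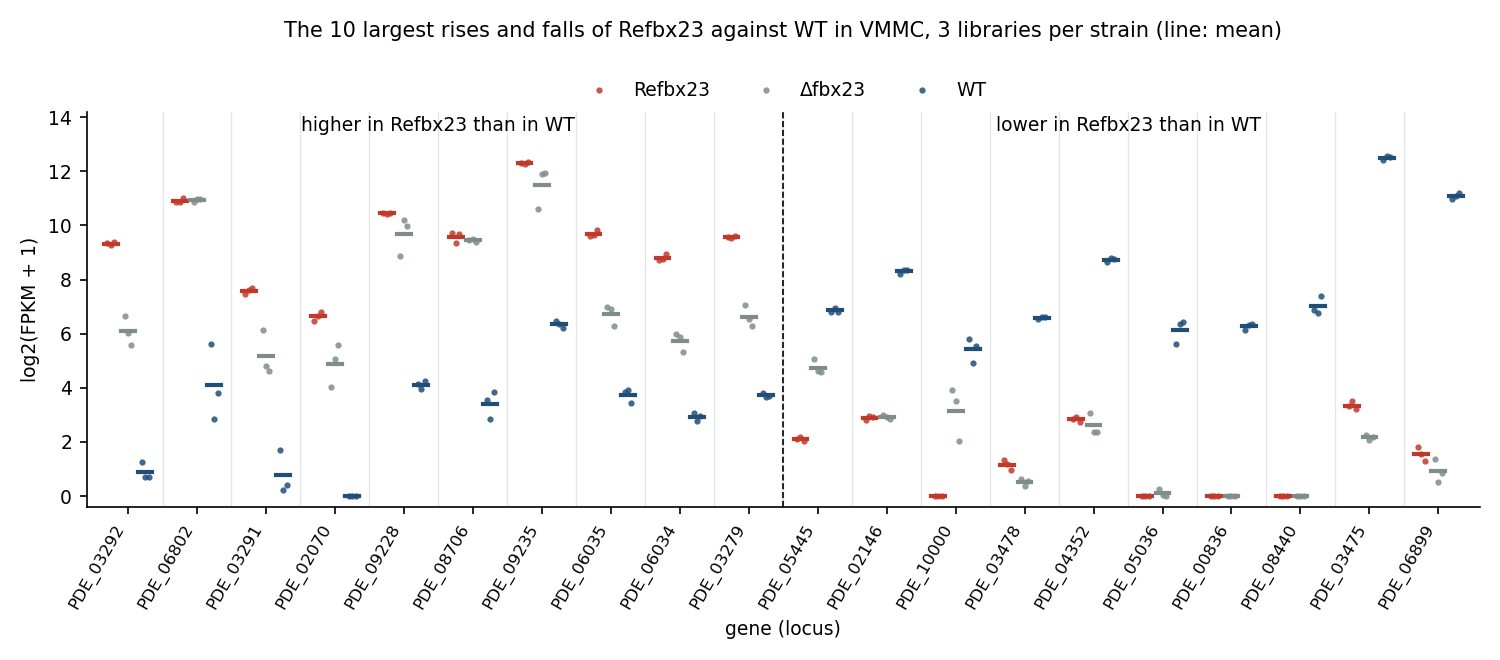
Level in VMMC, as log2(FPKM + 1), of the 10 genes with the largest rise (left of the dashed line) and the 10 with the largest fall (right) of Refbx23 against WT whose libraries did not overlap. Points are libraries (Refbx23 red, Δfbx23 grey, WT blue, 3 each) and short lines are their means. PDE_03475 and PDE_06899 stand at the far right, with WT near the top of the scale and both other strains near the bottom.

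A value of exactly 0 can be a failed estimate, so genes listed at 0 are given by library and without a fold. Of the genes at 0 in all 3 Refbx23 libraries, 14 had a WT mean of at least 10 FPKM, and 8 of these were also at 0 in all 3 Δfbx23 libraries in VMMC. Over the 12 libraries of Refbx23 and Δfbx23 in both media, 7 of the 14 were at 0 throughout. PDE_08440 was at 0 in every Refbx23 and Δfbx23 library in VMMC, against 116, 107 and 168 FPKM in WT, and PDE_00836 likewise, against 68.7, 79.4 and 80.5 FPKM in WT. PDE_09315 stood apart from these, listed at 0 in Refbx23 with 69.7, 79.5 and 64.2 FPKM in Δfbx23 and 24.5, 12.5 and 29.4 FPKM in WT. In the other direction 8 genes were at 0 in all 3 WT libraries and averaged 10 FPKM or more in Refbx23. PDE_03276 had 20.2, 16.7 and 20.6 FPKM in Refbx23 and was at 0 in every Δfbx23 and WT library in VMMC. PDE_08849 had 19.9, 32.0 and 32.3 FPKM in Refbx23 and 1.80, 1.10 and 1.42 FPKM in Δfbx23, with 0 in WT, although its WT mean in VMMG was 241 FPKM. Some of these genes varied between libraries of a strain: PDE_08540 read 48.8, 75.3 and 0 FPKM in Refbx23 with 0 in WT, and PDE_00553, PDE_02828 and PDE_09123, at 0 in Refbx23, read 0, 26.8 and 18.0 FPKM, 24.3, 14.7 and 0 FPKM and 0, 39.1 and 17.2 FPKM in WT. The calls of these 4 genes were lost when single libraries were left out.

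Several of the largest rises had Δfbx23 levels between those of Refbx23 and WT. PDE_03292 had 653, 611 and 663 FPKM in Refbx23, 101, 63.7 and 46.9 FPKM in Δfbx23 and 1.36, 0.62 and 0.63 FPKM in WT (8.45 ± 0.14 over WT, adjusted p = 3.95e-09). Its neighbour PDE_03291 had 177, 194 and 203 FPKM in Refbx23, 68.9, 26.9 and 23.3 FPKM in Δfbx23 and 2.27, 0.17 and 0.34 FPKM in WT. PDE_03279 had 751, 735 and 772 FPKM in Refbx23, 133, 91.9 and 77.0 FPKM in Δfbx23 and 13.1, 11.8 and 12.1 FPKM in WT. In each the libraries of the 3 strains formed separate ranges. The adjacent genes PDE_06034 and PDE_06035 showed the same order, with means of 449 and 829.8 FPKM in Refbx23, 52.9 and 107 FPKM in Δfbx23, and 6.63 and 12.5 FPKM in WT. These 5 genes were higher in Refbx23 than in Δfbx23 by log2 fold changes of 2.41 to 3.24. PDE_02070, listed at 0 in WT in VMMC, had 88.0, 98.4 and 111 FPKM in Refbx23 and 15.3, 32.4 and 47.2 FPKM in Δfbx23. PDE_06706, annotated with mycotoxin biosynthesis and dioxygenase activity, had 679.5, 736 and 724 FPKM in Refbx23, 178, 214 and 181 FPKM in Δfbx23 and 100.4, 111 and 103 FPKM in WT (2.76 ± 0.07 over WT and 1.90 ± 0.09 over Δfbx23). The means of these genes were thus farther from WT in the complemented strain than in its parent.

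Other large rises did not pass the test against Δfbx23. PDE_06802 had 1843, 1862 and 2066 FPKM in Refbx23, 1853, 2028 and 2012 FPKM in Δfbx23 and 48.5, 6.22 and 12.9 FPKM in WT (6.82 ± 0.58 over WT and -0.03 ± 0.08 over Δfbx23). Without WT replicate 1, the highest of the WT libraries, its value over WT was 7.59, and without WT replicate 2 it was 6.20. PDE_08706 had 832, 658 and 827 FPKM in Refbx23, 699, 728 and 672 FPKM in Δfbx23 and 10.7, 6.10 and 13.4 FPKM in WT (6.18 ± 0.24 over WT). PDE_00509, the most abundant of the changed genes by its mean over the 6 libraries, had 11428, 12371 and 12785 FPKM in Refbx23, 10787, 9936 and 9939 FPKM in Δfbx23 and 461, 420.4 and 391 FPKM in WT (4.84 ± 0.09 over WT). None of these 3 has a description in the sources used here. PDE_09377, annotated with carbohydrate transport, had 8469, 8148 and 8195 FPKM in Refbx23 against 2794, 2921 and 3042 FPKM in WT (1.50 ± 0.09). Among abundant genes that fell, PDE_06715 had 848, 1024 and 1094 FPKM in Refbx23 against 6306, 6363 and 6935 FPKM in WT (-2.73 ± 0.11). PDE_08122, annotated with polysaccharide catabolism, had 1720.3, 1747 and 1191 FPKM in Refbx23 against 4435, 7445 and 7998 FPKM in WT (-2.07 ± 0.24), with a wider spread than the other abundant genes in both strains.

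Most cellulase transcripts had lower estimates in Refbx23 than in WT. Of the 13 predicted cellulase genes 12 were tested, and 3 fell, none rose and 9 did not pass, beside 7.09% of all genes that fell. Their median log2 fold change was -0.74, beside -0.01 over all genes, and 10 of the 12 estimates were below 0. The summed level of the 13 genes was 3071, 3314 and 3644 FPKM in Refbx23, 20660.2, 13817 and 15735 FPKM in Δfbx23 and 7503, 8556 and 7109 FPKM in WT. The 3 strains did not overlap in this sum, and Refbx23 was the lowest. *cbh1* (PDE_07945), whose cellobiohydrolase works from the reducing end of the chain, had 533, 667 and 727 FPKM in Refbx23, 4129.9, 2612 and 3103 FPKM in Δfbx23 and 2588, 2568 and 2258 FPKM in WT (-1.95 ± 0.12 over WT, adjusted p = 5.30e-06). *cbh2* (PDE_07124), for the cellobiohydrolase of the other chain end, had 1087, 1122 and 1274 FPKM in Refbx23, 8453, 5218 and 6319 FPKM in Δfbx23 and 2602, 3413 and 2623 FPKM in WT (-1.30 ± 0.12 over WT, adjusted p = 5.69e-05). The glycoside hydrolase family 7 (GH7) gene PDE_05445, described as a probable cellobiohydrolase, had 3.32, 3.51 and 3.11 FPKM in Refbx23, 32.2, 23.4 and 22.9 FPKM in Δfbx23 and 112, 122 and 111 FPKM in WT (-4.75 ± 0.07 over WT, adjusted p = 3.22e-09). In each of these genes every Refbx23 library was below every library of both other strains.

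The endoglucanase genes, whose products cut within the cellulose chain, lay closer to WT. *eg1* (PDE_07929) had 256, 269 and 282 FPKM in Refbx23 against 537, 515 and 422 FPKM in WT (-0.86 ± 0.10), and *eg5* (PDE_07928) had 157, 172 and 185 FPKM in Refbx23 against 279, 343 and 295 FPKM in WT (-0.83 ± 0.10). Neither gene overlapped between the strains, and both were under the fold threshold. *eg2* (*cel5A*, PDE_02093) was just short of it at -0.97 ± 0.13, with 3.17, 2.60 and 3.71 FPKM in Refbx23 against 6.80, 6.93 and 7.63 FPKM in WT. It passed the threshold, narrowly, without WT replicate 1, and also without Refbx23 replicate 3 (-1.07), and either omission made 4 cellulase genes lower. The other tested members were *cel5C* (PDE_09969, -0.65), *cel5B* (PDE_09226, -0.40), *cel12B* (PDE_02886, -0.21), the GH12 gene PDE_09041 (-0.18), *cel5E* (PDE_03711, 0.20) and *cel12A* (PDE_06439, 0.45). *cel12A* was the member whose Refbx23 libraries all lay above the WT libraries, with 21.2, 21.8 and 20.7 FPKM in Refbx23 against 17.6, 17.8 and 11.4 FPKM in WT. *cel5D* (PDE_05193) was below the filter of this comparison, with 0.64, 0.72 and 0.68 FPKM in Refbx23, 10.7, 13.8 and 13.4 FPKM in Δfbx23 and 0.93, 1.00 and 1.53 FPKM in WT. Against Δfbx23, 11 of the 13 genes were lower in Refbx23 and none higher (median -2.54), beside 1.67% of all genes that were lower. *cel5E* and PDE_09041 were the members that did not pass that test. In Δfbx23 against WT, which shares the WT libraries, 9 of the 13 were higher and 1 lower (median 1.55), where 14.4% of all genes changed, 6.05% higher and 8.34% lower.

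Of 7 hemicellulase and accessory genes 1 rose, 2 fell and 4 did not pass, beside 5.63% of all genes that rose and 7.09% that fell, with a median log2 fold change of 0.35. The endoxylanase gene *xyn11A* (PDE_02101) rose, with 48.0, 59.9 and 62.2 FPKM in Refbx23, 609.7, 358 and 343 FPKM in Δfbx23 and 7.43, 2.18 and 0 FPKM in WT (4.26 ± 0.64 over WT, adjusted p = 0.00068). The endoxylanase gene *xyn10A* (PDE_08094) fell, with 71.6, 76.1 and 92.9 FPKM in Refbx23, 1121, 508 and 518 FPKM in Δfbx23 and 343, 373 and 306 FPKM in WT (-2.08 ± 0.11 over WT, adjusted p = 2.45e-06). For *xyn11A*, where the WT libraries differ most, the value over WT was 5.01 without WT replicate 1 and 3.47 without WT replicate 3, still past the threshold. The xylanase genes thus stood on opposite sides of WT in Refbx23, while both were lower than in Δfbx23 (-2.88 ± 0.22 for *xyn11A* and -3.05 ± 0.29 for *xyn10A*). The LPMO gene PDE_05633, for an enzyme that cleaves polysaccharide chains by oxidation, had 138, 161 and 131 FPKM in Refbx23, 1095, 1168 and 1240.1 FPKM in Δfbx23 and 442, 339.6 and 399 FPKM in WT (-1.45 ± 0.11 over WT). The swollenin gene PDE_02102 (0.41), the β-glucosidase gene *bgl1* (PDE_02736, 0.37), the mannanase gene *man5A* (PDE_06023, 0.35) and the β-xylosidase gene *xyl3A* (PDE_00049, -0.20) were under the fold threshold.

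**Figure D2:**
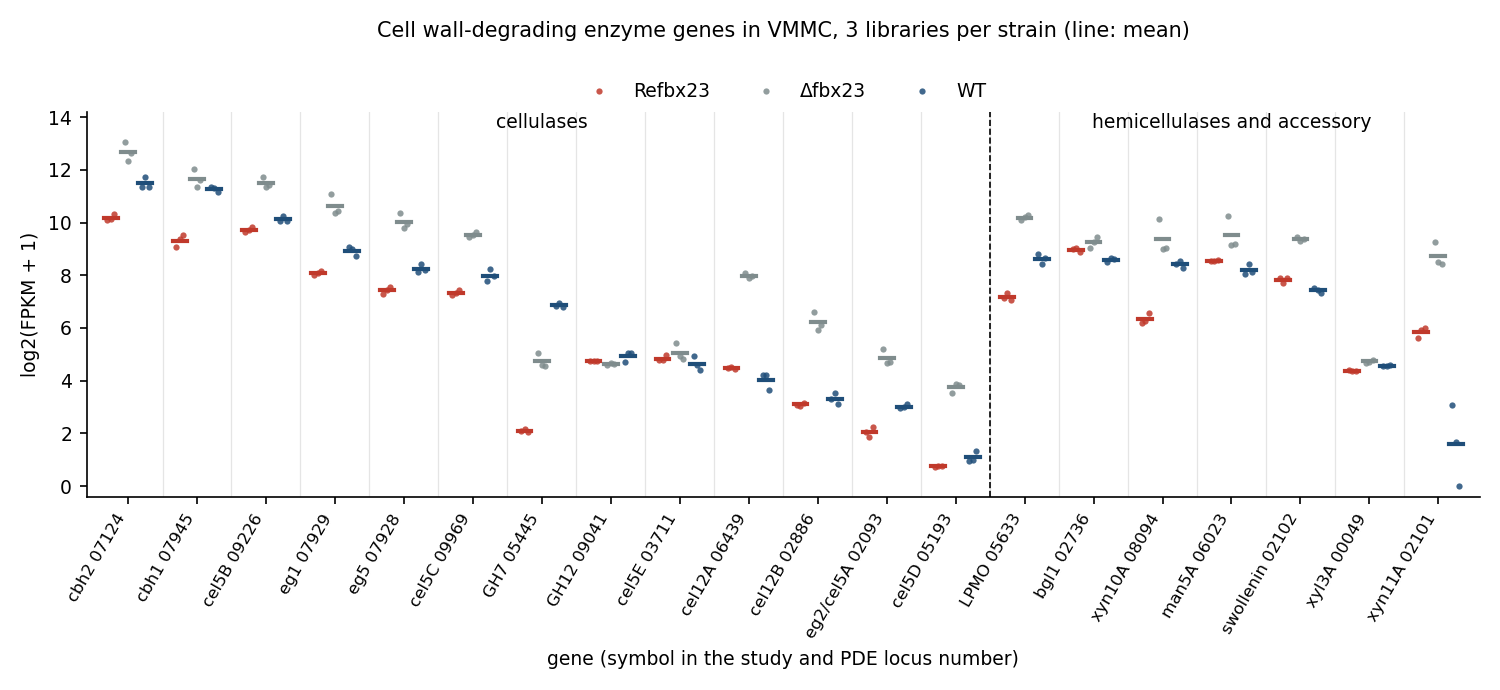
Level in VMMC, as log2(FPKM + 1), of the 13 cellulase genes (left of the dashed line) and 7 hemicellulase and accessory genes (right), each set ordered by its WT level. Points are libraries (Refbx23 red, Δfbx23 grey, WT blue, 3 each) and short lines are means. Refbx23 was below Δfbx23 past the threshold in 11 of the 13 cellulase genes and below WT past it in *cbh2*, *cbh1* and the GH7 gene PDE_05445.

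Wider annotation sets, which share members with these lists and with each other, also held changes in both directions. The study picked these sets, and the transporter and oxidoreductase sets, as enriched in Δfbx23 against the same WT libraries, so their counts are no independent evidence of a direction. They stand beside 5.63% of all genes that rose, 7.09% that fell and a median of -0.01, and beside 1.67% of all genes that were lower than in Δfbx23. Of 24 tested genes annotated with cellulose binding, 3 rose and 6 fell (median log2 fold change -0.60), and against Δfbx23 21 of 26 were lower and none higher. β-Glucan catabolism had 1 rise and 7 falls among 19 (median -0.76), xylan catabolism 3 rises and 6 falls among 21 (median -0.34), and cell wall macromolecule catabolism 4 rises and 6 falls among 24 (median -0.23). Polysaccharide binding had 4 rises and 6 falls among 28, cellulase activity 1 rise and 2 falls among 9, and xylanase activity 4 rises and 3 falls among 11. PDE_01261, annotated with cellulase activity and cellulose binding, fell, with 191, 186 and 191 FPKM in Refbx23 against 709, 792 and 644 FPKM in WT (-1.90 ± 0.08). PDE_00698, with the same annotations, rose, with 114, 121 and 95.4 FPKM in Refbx23 against 19.1, 23.9 and 18.1 FPKM in WT (2.38 ± 0.12). PDE_02682, annotated with xylanase activity, rose over WT and was lower than in Δfbx23, with means of 53.7 FPKM in Refbx23, 251 FPKM in Δfbx23 and 13.8 FPKM in WT. Polygalacturonase activity, which cuts pectin, had 1 rise and 6 falls among 15 (median -0.07). Its largest fall was PDE_09285, with 92.0, 104 and 78.0 FPKM in Refbx23 against 376, 525 and 556 FPKM in WT (-2.39 ± 0.16), followed by PDE_08139, described as a glucan 1,3-beta-glucosidase, with 205, 231 and 163 FPKM in Refbx23 against 749, 1136 and 1159 FPKM in WT (-2.32 ± 0.19).

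Of 41 tested carbohydrate transport genes, 3 rose and 5 fell, with a median of -0.42. Beside 5.63% and 7.09% of all genes, these shares are near the background. Besides PDE_03475 the falls included PDE_03313, with a mean of 509.6 FPKM in Refbx23 against 1488 FPKM in WT, and besides PDE_09377 the rises included PDE_02513, with 47.5, 44.6 and 47.8 FPKM in Refbx23 against 1.99, 1.43 and 2.31 FPKM in WT (4.04 ± 0.12). Of 27 amino acid transport genes, 5 rose and 5 fell (median -0.01). PDE_00845 of that set had 29.8, 29.0 and 26.7 FPKM in Refbx23, 5.67, 3.16 and 2.28 FPKM in Δfbx23 and 571, 539 and 565 FPKM in WT (-4.25 ± 0.07 over WT and 2.71 ± 0.24 over Δfbx23). PDE_04432 had means of 158 FPKM in Refbx23, 66.7 FPKM in Δfbx23 and 591 FPKM in WT. Both were higher than in the parent and lower than in WT. Sodium ion transport had 1 rise and 3 falls among 7. The oxidoreductases that act on single donors and incorporate molecular oxygen had 2 rises and 5 falls among 23. PDE_08904 of that set fell, with 11.4, 12.1 and 10.7 FPKM in Refbx23 against 250.4, 261 and 285 FPKM in WT (-4.42 ± 0.07), and PDE_09761 rose, with 351, 362 and 351 FPKM in Refbx23 against 30.4, 30.8 and 34.6 FPKM in WT (3.43 ± 0.07).

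A protein description was at hand for 12 of the genes that rose and 21 of those that fell. PDE_09759, an aromatic amino acid aminotransferase by its description, had 82.3, 87.4 and 80.2 FPKM in Refbx23 against 10.6, 7.90 and 10.4 FPKM in WT (2.99 ± 0.11). PDE_00081, described as a mitochondrial acyl-CoA synthetase family member, had 85.6, 89.9 and 94.5 FPKM in Refbx23 against 30.0, 25.0 and 31.1 FPKM in WT (1.62 ± 0.09). PDE_08813, a probable proline dehydrogenase of the first step of proline breakdown, fell, with 37.3, 36.5 and 34.9 FPKM in Refbx23 against 181, 161 and 157 FPKM in WT (-2.16 ± 0.07). PDE_08753, described as the nuclear fusion protein KAR5, was near the bottom of the scale, with 0.42, 0.45 and 0.50 FPKM in Refbx23 against 12.1, 11.0 and 11.9 FPKM in WT.

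Secondary metabolism held the longest blocks of higher transcripts. The study lists 28 predicted clusters, 26 of which had a tested gene, and 58 of their 229 tested genes rose and 17 fell, beside 5.63% and 7.09% of all genes. Over the clusters, 5 had only rises, 8 only falls, 3 both and 10 neither. In cluster 26, with the PKS backbone gene PDE_09237, 16 of 17 genes rose and none fell, with a median log2 fold change of 3.18. Its summed level was 15790.4, 16056 and 16192 FPKM in Refbx23, 8293, 18583 and 17478 FPKM in Δfbx23 and 1473, 1282 and 1358 FPKM in WT. The Refbx23 libraries lay close together and above all WT libraries, while Δfbx23 replicate 1 stood below the others of its group. The PKS gene had 349.5, 410.4 and 344 FPKM in Refbx23 against 38.0, 40.9 and 39.5 FPKM in WT (3.19 ± 0.08, adjusted p = 4.44e-08). The larger rises of the cluster were PDE_09228, with 1417, 1376 and 1409 FPKM in Refbx23 against 16.5, 14.4 and 18.0 FPKM in WT (6.35 ± 0.08), and PDE_09235, with 5105, 4942 and 5241 FPKM in Refbx23 against 88.3, 80.7 and 72.4 FPKM in WT (5.97 ± 0.08). PDE_09227, at the edge of the cluster, was the member that did not pass (0.44).

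In cluster 1, which has 3 NRPS and 2 DMAT backbone genes, 24 of 27 tested genes rose and none fell, with a median of 1.81. Over all genes 5.63% rose and 7.09% fell. Its summed level was 3557, 3876 and 3924 FPKM in Refbx23, 3457, 4619 and 4655 FPKM in Δfbx23 and 1024, 899 and 951 FPKM in WT. The 5 backbone genes rose by log2 fold changes of 1.44 (PDE_00793, NRPS) to 2.63 (PDE_00789, NRPS), and PDE_00789 had 67.9, 75.8 and 75.6 FPKM in Refbx23 against 11.1, 11.0 and 10.9 FPKM in WT. The DMAT genes PDE_00797 and PDE_00807 rose by 1.98 and 1.75, and the NRPS gene PDE_00810 by 1.81. PDE_00803 showed the largest rise of the cluster, with a mean of 256 FPKM in Refbx23 against 12.9 FPKM in WT. PDE_00787, PDE_00788 and PDE_00813, near the ends of the cluster, did not pass, and PDE_00812 was below the filter. No member of clusters 1 and 26 passed the test against Δfbx23, which 3.12% of all genes passed, so nothing is read from that count. The medians against Δfbx23 were -0.15 for cluster 1 and -0.03 for cluster 26, beside 0.03 over all genes.

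**Figure D3:**
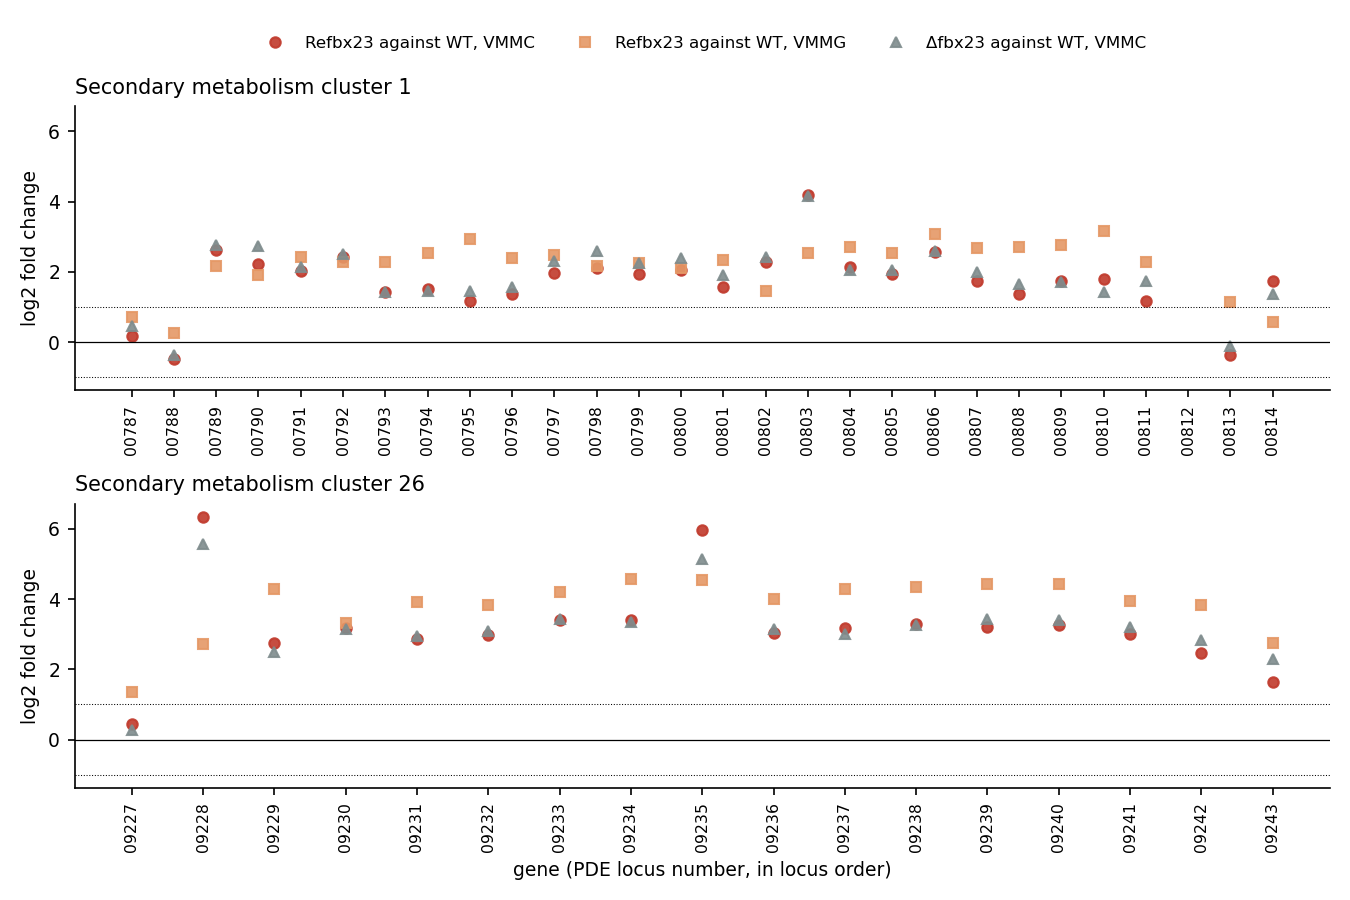
Log2 fold change of each tested gene of secondary metabolism clusters 1 (top) and 26 (bottom), in locus order. Circles show Refbx23 against WT in VMMC, squares Refbx23 against WT in VMMG, and triangles Δfbx23 against WT in VMMC, which shares its WT libraries with the circles; dotted lines mark the 2-fold threshold. In VMMC PDE_00787, PDE_00788, PDE_00813 and PDE_09227 lie inside the dotted lines and the other members above them.

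In cluster 4, 6 of 11 tested genes rose and none fell (median 1.16), and 3 of 11 were also higher than in Δfbx23. This and the next counts stand beside 5.63% of all genes that rose, 7.09% that fell and 1.44% that were higher than in Δfbx23. PDE_01194 had a mean of 55.1 FPKM in Refbx23, 18.6 FPKM in Δfbx23 and 5.75 FPKM in WT, and PDE_01187 had 86.3 FPKM in Refbx23, 29.1 FPKM in Δfbx23 and 14.4 FPKM in WT. The NRPS-like backbone gene of that cluster, PDE_01185, was below the filter. Cluster 5 had 3 rises and no fall among 9 tested genes, cluster 7 had 4 rises and 1 fall among 13, and cluster 20 had 3 rises and 1 fall among 6. Cluster 17 had 3 falls and no rise among 4, and cluster 16 had 3 falls and no rise among 12. The NRPS-like backbone gene PDE_08155 of cluster 24 rose, with 171, 196 and 191 FPKM in Refbx23 against 35.5, 37.01 and 38.4 FPKM in WT (2.30 ± 0.07), and the NRPS gene PDE_07005 of cluster 21 fell, with 2.07, 2.14 and 1.73 FPKM in Refbx23 against 4.97, 5.64 and 5.55 FPKM in WT (-1.10 ± 0.12). Cluster 28, with the PKS gene PDE_10006, had 1 rise and 1 fall among 11. The fall was PDE_10000, listed at 0 in all 3 Refbx23 libraries, with 14.1, 10.3 and 3.13 FPKM in Δfbx23 and 54.8, 29.1 and 45.9 FPKM in WT.

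Changed genes lay side by side both in these clusters and outside them. Runs of at least 5 tested neighbours in locus order that changed the same way numbered 7. The longest were 23 higher genes at PDE_00789 to PDE_00811 in cluster 1 and 18 higher genes at PDE_09228 to PDE_09246, which covers cluster 26 and goes past its last listed member, PDE_09243. PDE_08155 to PDE_08160 held 5 higher genes (median 2.30), the first of them the backbone gene of cluster 24. PDE_02119 to PDE_02126 held 6 higher genes (median 1.73). PDE_09758 to PDE_09762 held 5 (median 2.42), with the aminotransferase PDE_09759 and the oxygenase PDE_09761 among them. Lower genes formed 2 runs, PDE_08904 to PDE_08909 with 6 genes (median -2.67) and PDE_01261 to PDE_01268 with 6 (median -1.65). Against Δfbx23 the medians of the 7 runs lay between -0.58 and 0.12.

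The loci around *fbx23* were read because the locus was altered in both other strains. Within 5 locus numbers of it 10 genes are listed, *fbx23* included, of which 9 were tested and PDE_08464 was below the filter. PDE_08468, next to *fbx23*, fell, with 12.3, 11.9 and 13.6 FPKM in Refbx23, 13.6, 14.8 and 15.6 FPKM in Δfbx23 and 27.9, 30.3 and 27.8 FPKM in WT (-1.13 ± 0.08 over WT). PDE_08470, annotated with transmembrane transport, fell, with 56.2, 52.6 and 54.9 FPKM in Refbx23, 59.3, 87.1 and 80.7 FPKM in Δfbx23 and 183, 192 and 234 FPKM in WT (-1.87 ± 0.10 over WT). PDE_08466, on the other side of *fbx23*, did not pass, with 112, 121 and 108 FPKM in Refbx23 against 119.7, 155 and 131 FPKM in WT. The part of the altered locus in these values was not tested.

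Markers of sporulating cells differed from WT by less than 2-fold in VMMC. None of the 6 genes of dihydroxynaphthalene-melanin synthesis, which makes the spore pigment, changed, and their log2 fold changes ran from -0.46 (*arpA*, PDE_04496) to 0.23 (*albA*, PDE_09491) with a median of -0.19. The study reports these genes as lower in Δfbx23 on glucose, and *abrB* as bound by Ace1. They are therefore no independent measure of the share of sporulating cells. Their summed level was 2511 to 2707 FPKM in Refbx23, 2716 to 3319 FPKM in Δfbx23 and 2841 to 3259.7 FPKM in WT, and no marker was at 0. The sums of Refbx23 and WT did not overlap. In 4 of the 6 genes every Refbx23 library was below every WT library, beside 68.0% of all genes that did not overlap in either direction. In VMMG all 6 were higher in Refbx23 than in WT (median 2.58, beside 11.5% of all genes that were higher), with summed levels of 3707 to 4481 FPKM in Refbx23 and 477 to 1074 FPKM in WT. The 15 cytosolic ribosomal protein genes with a description, part of the protein synthesis machinery, differed by less than 2-fold. None passed the fold threshold in VMMC, and in all 15 every Refbx23 library was above every WT library, with log2 fold changes of 0.55 to 0.81. Over all genes 68.0% did not overlap in either direction. Their sum was 23963, 23651 and 25035 FPKM in Refbx23, 22012, 22512 and 23404 FPKM in Δfbx23 and 17394, 14826 and 13862 FPKM in WT. The 5 mitochondrial ribosomal protein genes had a median of 0.44 and none passed. The part of growth state in the other differences was not tested.

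The same strains in VMMG gave a set of libraries that shares none with the cellulose comparison. There 1429 of 7795 genes (18.3%) differed, 899 higher (11.5%) and 530 lower (6.80%) in Refbx23. Of the 451 genes higher in VMMC, 422 were tested in VMMG, and 122 of these (28.9%) were higher, 66 (15.6%) lower and 234 neither. Of the 568 genes lower in VMMC, 446 were tested in VMMG, and 49 of these (11.0%) were lower, 90 (20.2%) higher and 307 neither. Across the 7590 genes tested in both media the log2 fold changes had a Pearson correlation of 0.02 and a Spearman correlation of -0.06, over genes, which are not independent replicates. The strain difference itself depended on the medium for 2335 of 8072 genes (28.9%) in the interaction test over 12 libraries, with a more positive log2 fold change in VMMC for 982 (12.2%) and a more negative one for 1353 (16.8%).

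Clusters 1 and 26 rose in both media. In VMMG 24 of 27 genes of cluster 1 and 16 of 17 of cluster 26 were higher in Refbx23 than in WT, with medians of 2.33 and 4.02. Over all genes tested in VMMG 11.5% were higher. The summed level of cluster 26 in VMMG was 11294, 5242 and 5324 FPKM in Refbx23 against 899, 349 and 259 FPKM in WT. The cytosolic ribosomal genes lay on opposite sides, with a median of 0.63 in VMMC and -0.68 in VMMG. The interaction passed for 14 of 15, with a more positive value in VMMC, beside 12.2% of all genes. Their summed level in VMMG was 24462, 25096 and 23012 FPKM in Refbx23. In WT it was 30421, 34475 and 51529 FPKM, with replicate 3 well above the others. Cluster 28 had 10 of 11 genes higher in VMMG, and cluster 2 had 10 of 11 higher in VMMG beside no rise and 2 falls among 12 in VMMC. Over all genes 11.5% were higher in VMMG, and in VMMC 5.63% rose and 7.09% fell. PDE_03475 and PDE_04352, both lower in Refbx23 on cellulose, were low in both strains in VMMG, with means of 6.12 and 1.81 FPKM in Refbx23 and 5.13 and 1.32 FPKM in WT. PDE_06802 averaged 4178 FPKM in Refbx23 and 7887 FPKM in WT in VMMG, and so was abundant in both strains there.

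**Figure D4:**
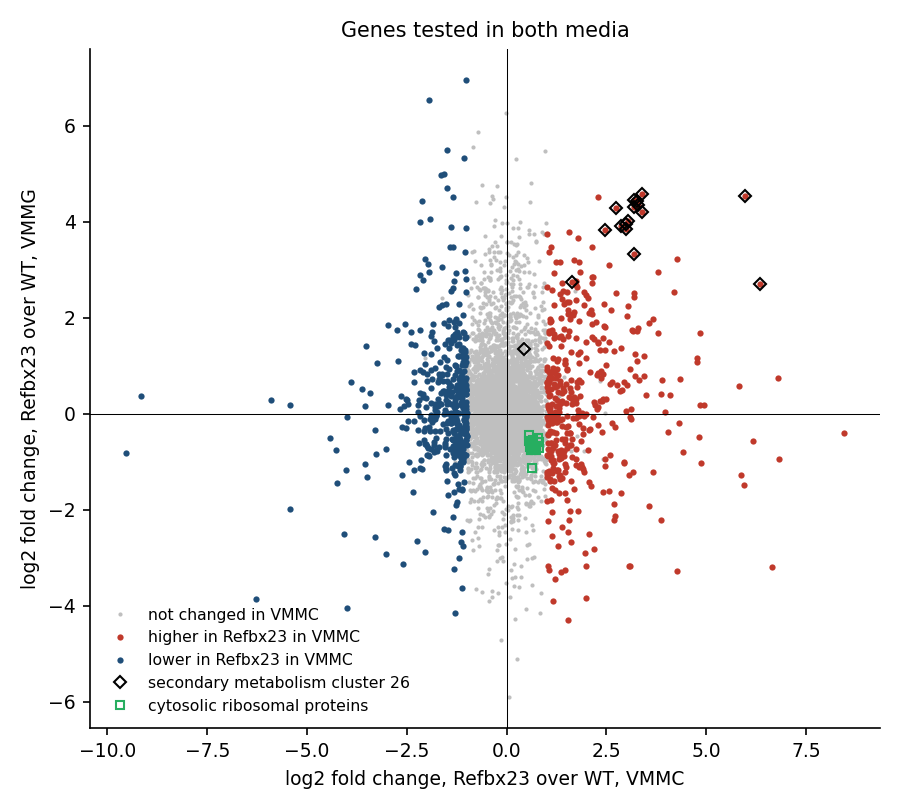
Log2 fold change of Refbx23 over WT in VMMC (horizontal) and in VMMG (vertical), 1 point per gene tested in both media. Red and blue points were higher and lower in Refbx23 in VMMC, grey points did not pass, black diamonds are cluster 26 and green squares are cytosolic ribosomal proteins. The cloud has almost no slope (Pearson correlation 0.02), with cluster 26 at the upper right and the ribosomal genes below the horizontal line at the right of the centre.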

How the data were processed

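FPKM values of *P. oxalicum* mycelium were deposited by the authors as 1 table of 9230 genes and 18 libraries, already normalised by gene length and library size. Aligner, genome build and annotation are not given in the sources used here. The labels describe a tag-based library protocol and the study's methods describe RNA-Seq, and this conflict could not be settled. Genes whose mean over the libraries of a comparison reached 1 FPKM were kept, and log2(FPKM + 1) was fitted with limma 3.58.1 in R 4.3.3 (moderated test with an intensity trend, Benjamini-Hochberg adjustment over all genes tested). Calls needed a 2-fold change in either direction and an adjusted p under 0.05. The interaction of strain and medium used 12 libraries. *fbx23* was also tested by an exact permutation test (scipy 1.17.1). The procedure was tested on simulated data.

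Named genes were the enzyme, melanin, SCF and *ace1* genes of the study, the 10 largest rises and 10 largest falls without overlap, the 10 most abundant changed genes, the largest changes among described genes, genes listed at 0 in a strain, genes differing from both other strains, changed backbone genes, the largest changes of each annotation set, and the neighbours of *fbx23*. PDE_03313, PDE_04432 and members of clusters given by their means were added after their values were seen. Members and lists were chosen with earlier results of these data known. Protein descriptions and annotation terms came from the study's tables, for 468 and 893 genes. No ID matched the reference table, so no sequence is printed. Alternatives were pseudocounts of 0.1 and 0.5, no filter or a mean of 5 FPKM, median-ratio scaling, 1 fit of all 18 libraries, a replicate block, no trend, array weights (fitted with convergence warnings), no fold threshold, and each library left out.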

Additional observations from a re-analysis of the deposited data

Results flagged for a closer look

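The log2 fold change of Refbx23 over WT differed between the media, in the interaction test of limma (difference of at least 1 and adjusted p under 0.05), in many of the 121 tested among the 123 named genes, 34 of them more positive and 54 more negative in VMMC. Most of these genes were chosen by their change in VMMC, so nothing is read from that count. Of the 30 tested genes that the study names by locus, 4 were more positive and 16 more negative, beside 12.2% and 16.8% of all genes. Values are given as the log2 fold change in VMMC minus that in VMMG, for the genes the study names and for the largest rises and falls on cellulose, 33 genes in all. The 5 others of these sets that passed, PDE_00836, PDE_02070, PDE_05036, PDE_08440 and PDE_10000, are listed at 0 in all libraries of a strain on cellulose and are given no fold.

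Among enzyme genes the difference was 7.53 for *xyn11A*, 3.32 for *cel5E*, 2.14 for *cel12B* and 1.33 for swollenin (PDE_02102). It was -4.45 for the GH7 gene PDE_05445, -1.71 for *xyn10A*, -1.67 for *cbh1*, -1.56 for *cbh2*, -1.40 for *xyl3A*, -1.22 for the LPMO gene PDE_05633, -1.21 for *eg2*, -1.20 for *cel5C* and -1.09 for *bgl1*. For some of these genes the strain difference lay mainly in VMMG. The log2 fold change there was -3.12 for *cel5E*, -2.35 for *cel12B*, 1.20 for *xyl3A* and 1.47 for *bgl1*. In VMMC it was 0.20, -0.21, -0.20 and 0.37 for the same genes. The adaptor gene *skp1* had -1.04. The melanin genes were all more negative, at -3.46 for *abrB*, -3.04 for *arpA*, -2.93 for *albA*, -2.76 for *aygA*, -2.60 for *arpB* and -2.29 for *abrA*. *eg2*, PDE_05445 and PDE_05633 were below the filter in VMMG, with means under 1 FPKM in both strains there. For PDE_05445 and PDE_05633 the VMMC value alone was past the threshold (-4.75 and -1.45). For *eg2* the VMMC value was short of it (-0.97). The *eg2* call therefore rests in part on VMMG values below the filter, where the libraries of the strains overlapped. In VMMG *xyn11A* read 0, 1.59 and 0 FPKM in Refbx23 and averaged 12.4 FPKM in WT, so its value depends on the pseudocount. *cbh1* and *cbh2* were also low in VMMG, with means of 1.39 and 2.23 FPKM in Refbx23 and 2.07 and 2.13 FPKM in WT. Some of these calls ended when 1 library was left out. That of *skp1* was lost without Refbx23 VMMG replicate 1 (-0.98) or WT VMMC replicate 1 (-0.98), that of *bgl1* without Refbx23 VMMG replicate 1 (-0.95) or 3 (-0.98) or WT VMMG replicate 1 (-0.90), and that of *cel5C* without WT VMMG replicate 3 (-0.97). That of *cbh2* was lost without Refbx23 VMMC replicate 1 (-1.51), Refbx23 VMMG replicate 2 (-1.39), WT VMMC replicate 2 (-1.43) or WT VMMG replicate 1 (-1.34). With array weights *cbh1* (-0.98), *cbh2* (-0.46) and the LPMO gene PDE_05633 (-0.78) were also under the threshold. A pseudocount of 0.1 ended the calls of PDE_05633 (-0.50) and *cbh2* (-1.82), and median-ratio scaling that of *skp1* (-0.98). Leaving out WT VMMC replicate 1 gave 8.28 for *xyn11A*, and leaving out replicate 3 of the same group gave 6.74.

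The largest rises and falls were chosen by their fold change in VMMC, which is part of the difference, so their values are a description and no test. Among the rises the difference was 8.85 for PDE_03292, 7.76 for PDE_06802, 7.44 for PDE_06035, 7.15 for PDE_06034, 6.74 for PDE_08706, 6.05 for PDE_03291, 5.25 for PDE_03279 and 3.64 for PDE_09228. Among the falls it was -9.54 for PDE_03475, -8.71 for PDE_06899, -6.19 for PDE_04352, -5.60 for PDE_02146 and -5.05 for PDE_03478, the last of which was below the filter in VMMG. Single libraries moved some values by over 1.5 times in fold, with the threshold still passed. Without WT VMMG replicate 1 the difference was 6.57 for PDE_06035, 6.30 for PDE_06034 and 4.64 for PDE_03279, and without WT VMMG replicate 3 it was 9.50 for PDE_03292, 8.60 for PDE_06035, 8.22 for PDE_06034, -8.93 for PDE_03475 and -8.09 for PDE_06899. Without Refbx23 VMMG replicate 1 it was 5.89 for PDE_03279 and 4.75 for PDE_09228, and without Refbx23 VMMG replicate 3 it was 2.68 for PDE_09228. PDE_06802 had 8.53 when WT VMMC replicate 1 was left out and 7.14 when replicate 2 of that group was.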

How the results depend on the processing

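The counts of changed genes moved by over 1.5 times when the fold threshold was dropped. Without it Refbx23 against WT gave 2449 higher and 2504 lower genes in VMMC and 1877 higher and 1650 lower in VMMG, the interaction 2121 and 2484, Refbx23 against Δfbx23 723 and 470, and Δfbx23 against WT 1802 and 2260. Under the other alternatives no called direction of a named gene reversed, which was not checked for the other genes. The Refbx23-WT total in VMMC was 851 to 1193, beside 1019 in the main fit. Leaving out 1 library at a time gave 434 to 472 higher and 535 to 593 lower genes for Refbx23 against WT in VMMC, 808 to 959 and 445 to 639 in VMMG, 913 to 1022 and 1303 to 1382 for the interaction, 99 to 132 and 119 to 148 against Δfbx23, and 464 to 492 and 639 to 732 for Δfbx23 against WT. Clusters 1 and 26 kept 24 and 16 higher genes, and 3 to 4 cellulases were lower. The *fbx23* difference of means, -1.16 FPKM with all libraries, ran from -4.25 to 1.25. PDE_00553, PDE_02828, PDE_08540 and PDE_09123, each with a library at 0 beside others well above it, lost their calls in several of these settings, PDE_03296 lost its call with all 18 libraries in 1 fit, and *eg2* (PDE_02093) passed with a pseudocount of 0.1 or 0.5.

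The replicate block called 1034 genes for Refbx23 against WT in VMMC, 457 of them higher, and shared 1018 with the 1019 called without it. Deviations of same-numbered Refbx23 and WT libraries correlated at 0.0447, 0.262 and 0.0281. Refbx23 replicates 1 and 2 correlated best with the WT library of their own number, and replicate 3 with another. Whether the numbers pair the libraries is not settled by these values, and the main comparison used no pairing. Depth limits genes near the filter in a way that FPKM values cannot show.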
